A study of Mus musculus with 20 samples.

Results

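Expression of 10 matrix metalloproteinase and inhibitor genes was examined in mouse mammary cancer with and without knockdown of *Rnaseh2c*, the gene of a subunit of the RNase H2 enzyme. The set held 7 metalloproteinase genes (*Mmp2*, *Mmp3*, *Mmp9*, *Mmp10*, *Mmp11*, *Mmp13* and *Mmp14*) and 3 genes of tissue inhibitors of metalloproteinases (*Timp1*, *Timp2* and *Timp3*), chosen by symbol. All 10 were found among the 20188 genes of the tumor table and among the 50667 Ensembl genes of the cell table. The study followed Mvt1, a mouse mammary carcinoma line of FVB strain background, transduced either with a scramble control shRNA (scr) or with sh4, an shRNA against *Rnaseh2c*, and kept under puromycin selection. Messenger RNA was sequenced from 3 scr and 3 sh4 primary mammary tumors that these cells formed in FVB mice, labelled as 30 days after implantation, where each of 3 experiments gave 1 tumor per group. Total RNA was sequenced from 3 scr and 3 sh4 plates of cultured cells. The model has limits. The knockdown rests on 1 hairpin, both groups are transduced lines, the tumor RNA came from small sections that hold host cells as well as cancer cells, and the labels do not say whether the plates were separate cultures, so that spread between plates may be technical.

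Matrix metalloproteinases are zinc enzymes that cleave collagens, other matrix proteins and cell surface proteins. Most are secreted as inactive proenzymes, which other proteases activate, and Timp proteins block the active site. In mammary tumors they are made by cancer cells as well as by fibroblasts, macrophages and neutrophils.

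The targeted gene was read first. *Rnaseh2c* (chromosome 19 of mm9, 5601873 to 5603439) was at 26.9, 52.0 and 25.9 RPKM (reads scaled by transcript length and library size) in the scr tumors and at 10.2, 22.4 and 19.8 RPKM in the sh4 tumors. Every sh4 tumor was below every scr tumor, by a log2 difference of -0.98 (SE 0.37, limma adjusted p = 0.995 over 13487 genes). In culture it was at 5.83, 7.06 and 5.34 FPKM (fragments scaled in the same way) in scr and at 3.19, 5.36 and 4.28 FPKM in sh4, where the groups overlapped by 1 plate (log2 difference -0.48, SE 0.18, limma adjusted p = 0.236). Scr tumor 2 stood apart, since its 5 adipocyte markers summed to 1666 RPKM, against 23.6 to 227 RPKM in the other 5 tumors. Scr tumor 1 stood apart in its 5 skeletal muscle markers, which summed to 74.2 RPKM, against 4.29 to 31.6 RPKM in the other 5. In the cultured cells the fibroblast, endothelial and adipocyte markers were at or near 0, and the macrophage markers were in part present. The 8 fibroblast markers summed to 0.412 FPKM at most, the 6 endothelial markers to 0.241 FPKM and the 5 adipocyte markers to 0.0215 FPKM. The 6 macrophage markers summed to 13.99 to 17.9 FPKM, with *Emr1* and *C1qa* listed at 0 in all 6 plates, *Cd68* at 11.2 to 15 FPKM, *Csf1r* at 1.09 to 1.53 FPKM and *Cd163* at 1.30 to 1.77 FPKM. The epithelial keratin *Krt8* was at 269 to 349 FPKM, whereas *Epcam* and *Cdh1*, also epithelial markers, were at 0.0228 FPKM or less in every plate.

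In the tumors, none of the 10 genes passed the test between sh4 and scr. Values were compared as log2(RPKM + 0.5) with limma, at a Benjamini-Hochberg adjusted p under 0.05 over the 13487 genes whose average over the 6 tumors was 0.1 RPKM or more. All 10 genes met that filter, and 0 were called, against 0.0% of all genes (0 of 13487). At an unadjusted limma p under 0.05 there were likewise 0 of the 10, against 4.18% of all genes (2.16% higher and 2.02% lower in sh4). Without scr tumor 1 there were 3 (*Mmp2*, *Mmp9* and *Mmp11*, all higher in sh4), against 3.23% of all genes, and 2 with a transcript length index as covariate (*Mmp11* and *Timp1*), against 9.19%. The groups did not overlap in 1 of the 10, against 9.17% of all genes, with sh4 above in 0 (4.19% of all genes) and below in 1. The difference was positive (higher in sh4) in 7 genes and negative in 3, with a median of 0.21, against -0.04 over all genes tested. Without scr tumor 2 it was positive in 4 and negative in 6, with a median of -0.12, against -0.09 over all genes, and within experiment 1 the sh4 tumor was lower in 8 of the 10. These differences are on the log2(value + 0.5) scale, which understates the change of low genes. In bulk tumor RNA fewer cells of a type and less RNA per cell cannot be told apart.

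**Figure D1:**
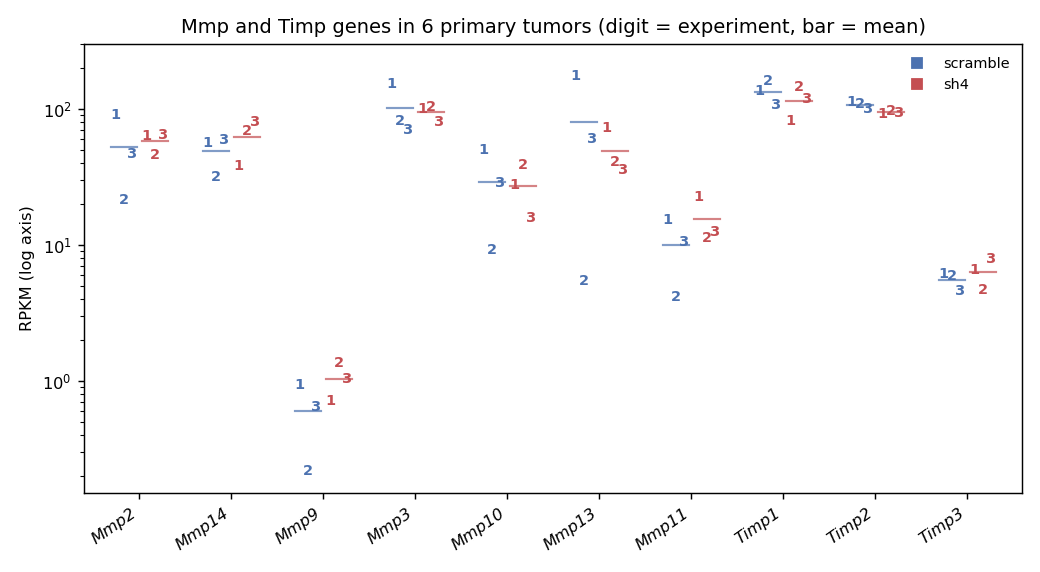
Level of each Mmp and Timp gene in the 6 primary tumors, in RPKM on a log axis. Each digit is 1 tumor and gives its experiment, blue for scramble and red for sh4, and the bars are group means (n = 3). *Mmp13* ran from 5.39 to 174 RPKM within the scramble group, whereas the 6 *Timp2* values lay between 92.3 and 112 RPKM.

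*Mmp14*, *Mmp2* and *Timp2* work together at the cell surface, where the membrane-anchored protease Mmp14 holds Timp2 and activates the gelatinase Mmp2. *Mmp14* (chromosome 14 of mm9, 55050441 to 55060095) was at 56.6, 31.5 and 59.5 RPKM in scr tumors 1, 2 and 3 and at 37.8, 68.5 and 80.7 RPKM in the sh4 tumors. The groups overlapped, with the highest value in sh4 tumor 3 and the lowest in scr tumor 2 (means 49.2 ± 15.4 and 62.3 ± 22.1, SD, n = 3 each). The log2 difference was 0.32 (SE 0.35, 95% interval -0.48 to 1.12, limma adjusted p = 0.995), and leaving out a tumor moved it to between 0.03 (scr tumor 2) and 0.65 (sh4 tumor 1), with 0.10 for sh4 tumor 3.

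*Mmp2* (chromosome 8, 95351227 to 95377316) measured 90.1, 21.5 and 46.4 RPKM in the scr tumors and 62.9, 46.1 and 64.8 RPKM in the sh4 tumors. Both the highest and the lowest value were scr tumors, and the 3 sh4 tumors lay between them. The log2 difference of 0.35 (SE 0.46, interval -0.72 to 1.42) turned to -0.17 without scr tumor 2. *Mmp9* (chromosome 2, 164766280 to 164781350) codes for the other gelatinase, which neutrophils and macrophages are known to carry. It was the lowest of the 10 genes, at 0.938, 0.219 and 0.642 RPKM in scr and 0.719, 1.36 and 1.03 RPKM in sh4 tumors. Its limma p was the smallest among the members (log2 difference 0.52, SE 0.29, interval -0.15 to 1.19, unadjusted p = 0.113, adjusted p = 0.995), and without any 1 tumor the difference stayed positive, between 0.24 and 0.74. The 5 neutrophil markers in the tumor table summed to 10.8, 17.7 and 12.8 RPKM in scr and 6.40, 20.1 and 12.4 RPKM in sh4 tumors. They split, with 1 positive and 4 negative differences. *Retnlg*, the positive one, was at 0.780, 0.938 and 1.21 RPKM in scr and 1.60, 3.16 and 2.11 RPKM in sh4 tumors. Its sh4 values were above without overlap, as in 4.19% of all genes tested (log2 difference 0.89, SE 0.26, limma adjusted p = 0.995). The part of these markers in the *Mmp9* values was not tested.

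*Mmp3* and *Mmp10* code for stromelysins 1 and 2, which cleave many matrix proteins and activate other proenzymes, and *Mmp13* for collagenase 3, which cuts fibrillar collagen. The 3 genes lie near each other on chromosome 9 of mm9, *Mmp13* at 7272514 to 7283333, *Mmp3* at 7445822 to 7455972 and *Mmp10* at 7502352 to 7510238. *Mmp13* had the widest spread of the 10. It was at 174, 5.39 and 60.1 RPKM in the scr tumors, a 32.3-fold range, and at 71.99, 40.6 and 35.6 RPKM in the sh4 tumors, a 2.02-fold range. The 3 sh4 tumors thus lay inside the range of the scr tumors. The SD of its log2 values within groups (1.81) exceeded that of 99.7% of the genes tested.

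The interval of the *Mmp13* difference was accordingly wide (log2 difference 0.26, SE 1.07, 95% interval -2.23 to 2.75, limma adjusted p = 0.997). Its direction depended on which tumors were included. The difference was -1.11 without scr tumor 2 and -0.04 without sh4 tumor 1, with limma adjusted p of 0.819 and 0.989. It was 1.33 without scr tumor 1 (limma adjusted p = 1.00). Within experiments sh4 minus scr was -1.27, 2.80 and -0.75 for experiments 1, 2 and 3.

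*Mmp10* followed the same order of signs. It measured 49.97, 9.15 and 28.7 RPKM in the scr tumors and 27.5, 38.6 and 15.8 RPKM in the sh4 tumors, so that sh4 was lower in experiments 1 and 3 and higher in experiment 2 (log2 differences -0.85, 2.02 and -0.84). The pooled difference was 0.11 (SE 0.59, interval -1.25 to 1.48), -0.55 without scr tumor 2 and -0.18 without sh4 tumor 2. *Mmp3* was steadier, at 153, 81.2 and 69.4 RPKM in scr and 100, 104 and 79.9 RPKM in sh4 tumors. The sh4 values fell within the scr range here too (log2 difference -0.02, SE 0.30, interval -0.71 to 0.67). The pooled difference turned to 0.32 without scr tumor 1 and to 0.10 without sh4 tumor 3.

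The promoters of these 3 neighbours are shown because they carry the same pair of short motifs, and because genes of the AP-1 factors that bind the first of them are among the pathway genes measured here. Each window is the 150 bases before the start of the gene on the plus strand, from RefSeq with build GRCm38.p6, on chromosome 9 at chr9:7272364-7272513 for *Mmp13*, chr9:7445672-7445821 for *Mmp3* and chr9:7502192-7502341 for *Mmp10*. Capitals mark TGAGTCA, the AP-1 motif (searched on both strands and printed as TGACTCA where it lies on the other strand), and TATAAA, the TATA box (gene strand).
Mmp13: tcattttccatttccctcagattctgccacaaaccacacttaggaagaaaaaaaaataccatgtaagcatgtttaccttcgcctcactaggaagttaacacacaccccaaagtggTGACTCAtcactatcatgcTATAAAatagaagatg
Mmp3: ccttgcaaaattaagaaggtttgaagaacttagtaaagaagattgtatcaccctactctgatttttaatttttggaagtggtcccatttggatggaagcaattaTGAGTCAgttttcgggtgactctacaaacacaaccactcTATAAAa
Mmp10: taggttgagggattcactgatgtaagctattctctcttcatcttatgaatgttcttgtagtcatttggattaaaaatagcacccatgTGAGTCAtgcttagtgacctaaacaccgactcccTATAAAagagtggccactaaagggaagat

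The AP-1 motif began 35 bases before the start of *Mmp13*, 46 before that of *Mmp3* and 63 before that of *Mmp10*. Of the 10 members, 8 had a promoter in the RefSeq table (not *Mmp2* and *Mmp9*), and these 3 were the ones with the AP-1 motif in the window, a motif held by 2.84% of 32851 promoter windows of the same length. The TATA box was found in the same 3 members and in 4.84% of all windows. Counted from the start of the gene, it lay at -16 to -11 in *Mmp13*, -7 to -2 in *Mmp3* and -29 to -24 in *Mmp10*. The letters AGGAAG (PEA3, the motif of ETS factors, both strands) were found in *Mmp13* and *Timp1* and in 19.7% of all windows. No motif overlapped another among those in capitals. A match of letters is a description of the sequence and was not measured as binding.

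*Mmp11* (chromosome 10 of mm9, minus strand, 75385967 to 75400678) codes for stromelysin 3, which the proprotein convertase furin activates inside the cell and which is known from stromal fibroblasts of carcinomas. It was at 15.1, 4.14 and 10.5 RPKM in the scr tumors and at 22.6, 11.3 and 12.5 RPKM in the sh4 tumors. Scr tumor 1 lay above 2 of the sh4 tumors, so the groups overlapped. The sh4 tumor was nevertheless the higher one in 3 of 3 experiments, by log2 differences of 0.57, 1.34 and 0.24. With the pseudocount of 0.5 the pooled difference was the largest of the 10 members (0.72, SE 0.46, 95% interval -0.35 to 1.79, limma adjusted p = 0.995). With a pseudocount of 0.1 it was 0.75, below the 0.82 of *Mmp9*. With the experiment as a block, the unadjusted limma p of *Mmp11* fell from 0.161 to 0.0234, while the adjusted p of 0.714 remained above the threshold. The block also raised the share of all genes at an unadjusted limma p under 0.05, from 4.18% to 6.75%. *Mmp11* was the 1 member of 10 under it. Leaving out 1 tumor at a time gave differences of 0.22 to 1.09 for *Mmp11*. *Mmp11* overlaps *Chchd10* on the opposite strand, at 3.87 to 15.5 RPKM in the tumors, and whether the counting used strand is not given in the sources used here.

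Within groups, the log2 values of each of the 3 inhibitor genes had a smaller SD than those of any of the 7 protease genes. *Timp2* (chromosome 11, minus strand, 118162383 to 118217054) was at 112, 108 and 99.3 RPKM in the scr tumors and at 92.3, 97.1 and 93.4 RPKM in the sh4 tumors. Every sh4 tumor was below every scr tumor, as in 4.98% of all genes tested. The log2 difference was -0.18 (SE 0.14, 95% interval -0.51 to 0.16, limma adjusted p = 0.995), and the exact permutation test gave p = 0.1, the smallest that 3 against 3 allows. Its SD within groups lay at percentile 1.39 of the genes tested.

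*Timp1* (chromosome X, 20447292 to 20451861), an inhibitor that inflammatory signals induce, was at 135, 160 and 107 RPKM in scr and at 81.1, 145 and 119 RPKM in sh4 tumors. The groups overlapped, and the sh4 tumor was lower in experiments 1 and 2 and higher in experiment 3 (log2 difference -0.24, SE 0.26, interval -0.83 to 0.36), and without sh4 tumor 1 the difference was -0.0045. *Timp3* (chromosome 10, 85763117 to 85812251), which binds the matrix and also blocks ADAM and ADAMTS enzymes, measured 6.13, 5.89 and 4.59 RPKM in scr and 6.58, 4.64 and 7.88 RPKM in sh4 tumors (log2 difference 0.17, SE 0.24, interval -0.40 to 0.73), with a difference of 0.0088 without sh4 tumor 3 and 0.36 without sh4 tumor 2. It overlaps *Syn3* on the opposite strand, which was at 1.72 to 3.73 RPKM.

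Scr tumor 2 held the lowest value of the 6 tumors for 6 of the 7 Mmp genes, *Mmp3* being the exception, whereas 24.2% of all genes tested had their lowest value there. Scr tumor 1 held the highest value for 4 of the 7 (*Mmp2*, *Mmp3*, *Mmp10* and *Mmp13*), against 11.8% of all genes. The 7 Mmp genes summed to 540, 153 and 275 RPKM in the scr tumors and to 324, 310 and 290 RPKM in the sh4 tumors. The scr tumors thus spanned both ends of the range, and the 3 sh4 tumors lay close together between them.

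The 3 Timp genes did not follow. They summed to 253, 274 and 211 RPKM in the scr tumors and to 180, 247 and 220 RPKM in the sh4 tumors, with scr tumor 2 the highest. The ratio of the Mmp sum to the Timp sum was 2.13, 0.560 and 1.31 in scr and 1.80, 1.25 and 1.32 in sh4 tumors, so scr tumor 2 was the one tumor with a smaller Mmp than Timp sum.

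The marker sums of the same tumors were set beside these values. The adipocyte sum was 23.6, 1666 and 190 RPKM in scr and 227, 65.2 and 34.4 RPKM in sh4 tumors, highest in scr tumor 2, where *Fabp4* alone reached 1514 RPKM, and lowest in scr tumor 1. The 8 fibroblast markers summed to 1038, 461 and 667 RPKM in scr and to 769, 458 and 1203 RPKM in sh4 tumors. The lowest fibroblast sums were those of scr tumor 2 and sh4 tumor 2, which differed in single markers (*Col1a1* 80.6 and 117 RPKM, *Col3a1* 220 and 128 RPKM). The 6 epithelial markers summed to 1105 RPKM in scr tumor 2 and to 415 to 743 RPKM in the other 5, and the macrophage sums ran from 666 to 937 RPKM over the 6 tumors. The 6 endothelial markers summed to 17.5, 13.0 and 16.4 RPKM in scr and to 34.4, 15.9 and 22.7 RPKM in sh4 tumors, with 6 of 6 differences positive. Of these genes 0 were called by limma, against 0.0% of all genes. In 2 (*Emcn* and *Vwf*) sh4 was above without overlap, against 4.19% of all genes tested. The skeletal muscle sum was highest in scr tumor 1, the tumor with the highest *Mmp13*. The part of these cell types in the Mmp values was not tested.

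**Figure D2:**
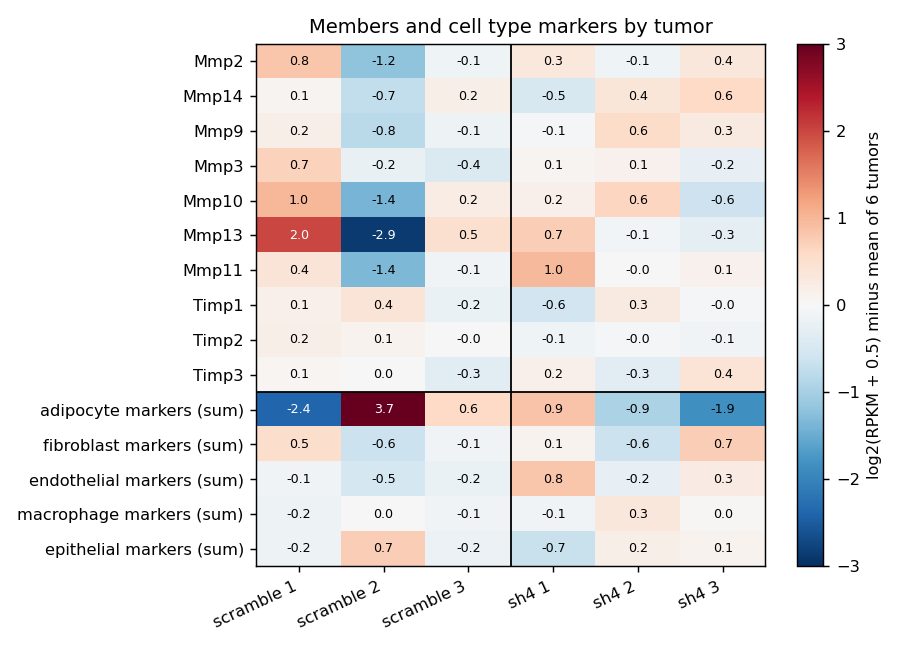
Deviation of each member, and of the summed markers of 5 cell types, from its own mean over the 6 tumors, in log2(RPKM + 0.5). Columns are tumors, 3 scramble on the left and 3 sh4 on the right, red above and blue below the mean. Scramble tumor 2 had the lowest *Mmp13* (-2.88) and the highest adipocyte sum (3.73). The macrophage sum was mostly *C1qa*, and the epithelial sum mostly *Krt8* and *Krt18*.

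The members ranked as follows in the tumors, by mean RPKM over the 6 libraries. *Timp1* led with 124, followed by *Timp2* (100.5), *Mmp3* (98.0), *Mmp13* (64.6), *Mmp14* (55.8), *Mmp2* (55.3), *Mmp10* (28.3), *Mmp11* (12.7), *Timp3* (5.95) and *Mmp9* (0.819). The first 6 of these lay above 93.1% or more of all genes tested, whereas *Mmp9* lay above 18.2%. Each neighbouring pair was compared within tumors by an exact sign-flip test of its 6 log2 differences, 9 pairs in all. *Mmp2* over *Mmp10*, *Mmp10* over *Mmp11* and *Timp3* over *Mmp9* held in 6 of 6 tumors with an exact p of 0.03125, the smallest that 6 tumors allow, and an adjusted p of 0.0938. With 3 of 9 pairs at the smallest possible p, none could reach an adjusted p under 0.05, and the test does not settle their order. The mean log2 difference was 3.03 (SD 0.97) for *Timp3* over *Mmp9*, 1.12 (SD 0.67) for *Mmp10* over *Mmp11* and 1.04 (SD 0.60) for *Mmp2* over *Mmp10*. By contrast, *Timp2* and *Mmp3* exchanged places in 3 of 6 tumors, as did *Mmp13* and *Mmp14*.

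In cultured Mvt1 cells, too, none of the members passed the test. The intervals were narrower, but log2(FPKM + 0.5) shrinks differences and intervals of genes near 0.5 FPKM. *Mmp2*, *Mmp11*, *Mmp13* and *Mmp10* were such genes, with means of 0.262, 0.375, 0.434 and 0.829 FPKM. With a pseudocount of 0.1 the log2 difference was 0.46 for *Mmp13*, -0.38 for *Mmp11*, 0.45 for *Mmp10* and -0.01 for *Mmp2*. Of the 10, 8 had a mean of at least 0.1 FPKM and entered the limma fit of 21106 genes, and 0 were called, against 1.28% of all genes (270 of 21106, 110 higher and 160 lower in sh4). At an unadjusted limma p under 0.05 there were 2 members, both higher in sh4, against 9.55% of all genes in that direction, and 0 lower, against 9.33%, and over the alternatives this count was 0 to 3. The groups did not overlap in 3 of the 8, against 27.5% of all genes. Of the 8 genes, 4 had a positive and 4 a negative difference, with a median of 0.03, against 0.00 over all genes tested.

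**Figure D3:**
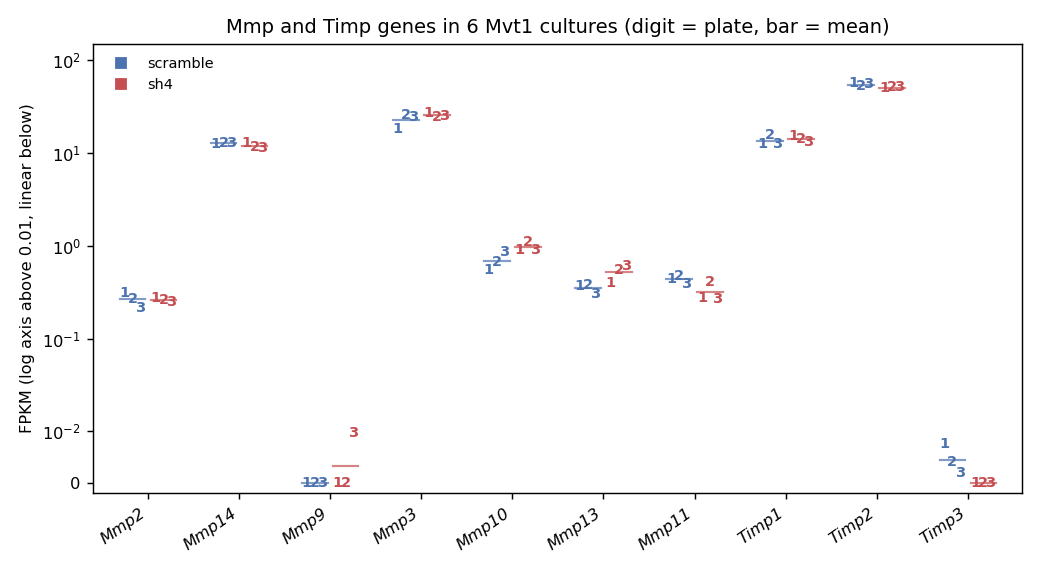
Level of each Mmp and Timp gene in the 6 Mvt1 cultures, in FPKM on an axis that is logarithmic above 0.01 and linear below. Each digit is 1 plate, blue for scramble and red for sh4, and the bars are group means (n = 3). *Timp2*, *Mmp3*, *Timp1* and *Mmp14* were above 11 FPKM in every plate and the other members at 1.1 FPKM or less.

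The 2 genes with the smallest unadjusted p were chromosome 9 neighbours. *Mmp10* was at 0.550, 0.668 and 0.848 FPKM in the scr plates and at 0.899, 1.09 and 0.912 FPKM in the sh4 plates. Every sh4 plate was above every scr plate, as in 13.6% of all genes tested, with the nearest values 0.848 and 0.899 FPKM. The log2 difference was 0.31 (SE 0.12, 95% interval 0.03 to 0.59, limma unadjusted p = 0.0347, adjusted p = 0.229, and 0.165 to 0.477 over the alternative settings).

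*Mmp13* measured 0.371, 0.374 and 0.299 FPKM in scr and 0.399, 0.551 and 0.613 FPKM in sh4 plates, again without overlap (log2 difference 0.26, SE 0.11, interval 0.01 to 0.52, limma unadjusted p = 0.0448, adjusted p = 0.253). *Mmp3* was the most abundant protease gene of the cells, at 18.4, 25.4 and 24.3 FPKM in scr and 27.1, 24.7 and 25.1 FPKM in sh4. Scr plate 1 was the low value and the other 5 plates lay between 24.3 and 27.1 FPKM (log2 difference 0.19, SE 0.13, interval -0.12 to 0.49, limma adjusted p = 0.465).

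*Mmp14* and *Timp2* hardly varied. *Mmp14* was at 12.6, 12.8 and 12.8 FPKM in scr and at 12.9, 11.6 and 11.4 FPKM in sh4 plates (log2 difference -0.09, interval -0.23 to 0.06). *Timp2* was at 56.4, 52.3 and 55.3 FPKM in scr and at 49.9, 51.0 and 51.5 FPKM in sh4 plates. All 3 sh4 plates were below the scr plates, as in 13.8% of all genes tested, by a log2 difference of -0.10 (SE 0.05, interval -0.23 to 0.02, limma unadjusted p = 0.0868, adjusted p = 0.333), and by -0.20 under quantile normalization (limma adjusted p = 0.23).

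*Timp1* was at 12.5, 15.7 and 12.5 FPKM in scr and at 15.3, 14.3 and 13.1 FPKM in sh4 plates, with overlap (log2 difference 0.07, interval -0.18 to 0.33). *Mmp11* was at 0.437, 0.478 and 0.388 FPKM in scr and at 0.270, 0.410 and 0.264 FPKM in sh4 plates (log2 difference -0.20, SE 0.10, interval -0.44 to 0.04, limma adjusted p = 0.337). Its sign was negative in the cells and positive in the tumors, and the difference between the 2 was not tested because the tables were normalized separately. *Chchd10*, which overlaps *Mmp11* on the opposite strand, was at 0.247 to 0.598 FPKM in the plates. Its part in the *Mmp11* values was not tested. *Mmp2* was at 0.214 to 0.307 FPKM in all 6 plates (log2 difference -0.01, interval -0.21 to 0.19).

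The 2 members below the filter were *Mmp9* and *Timp3*. *Mmp9* was listed at 0 in 5 plates and at 0.00962 FPKM in sh4 plate 3. *Timp3* was at 0.00759, 0.00402 and 0.00186 FPKM in the scr plates and listed at 0 in the 3 sh4 plates, and no fold is given at this level.

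**Figure D4:**
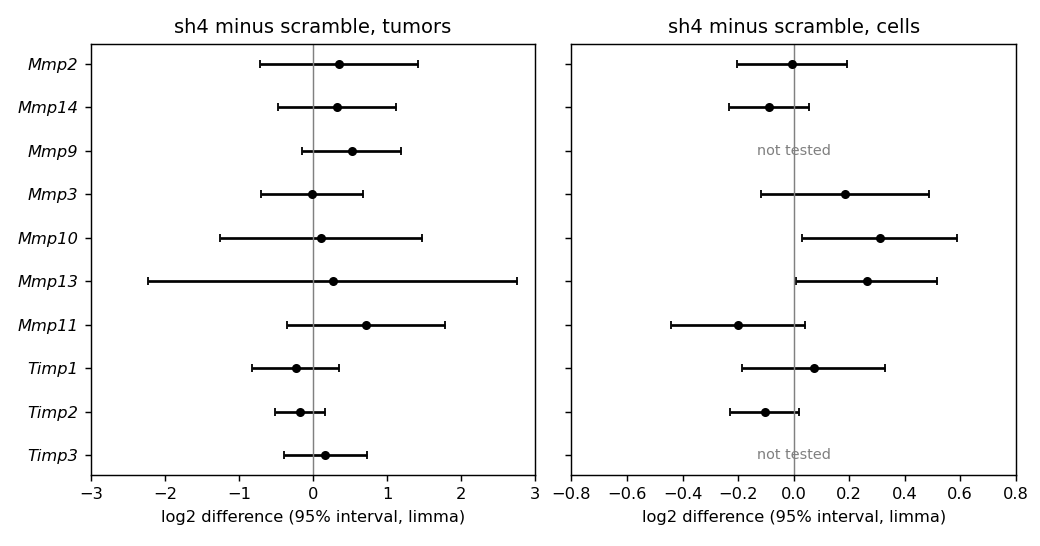
Difference between sh4 and scramble in log2(value + 0.5) for each member, tumors on the left and cells on the right, with 95% limma intervals and 3 libraries a group. The horizontal scales differ. The tumor intervals all include 0, with *Mmp13* from -2.23 to 2.75, and in cells *Mmp10* (0.03 to 0.59) and *Mmp13* (0.01 to 0.52) lay above 0 before adjustment.

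In cells the order of mean levels was *Timp2* (52.7 FPKM), *Mmp3* (24.2), *Timp1* (13.9), *Mmp14* (12.3), *Mmp10* (0.829), *Mmp13* (0.434), *Mmp11* (0.375) and *Mmp2* (0.262). Of 7 neighbouring pairs, 4 kept their order in 6 of 6 plates (exact sign-flip p = 0.03125, adjusted p = 0.0547). With 4 of 7 pairs at the smallest possible p, none could reach an adjusted p under 0.05. The test therefore does not settle their order, and the plates it counts may not be separate cultures. *Timp1* exceeded *Mmp14* in 4 of 6 plates and *Mmp13* exceeded *Mmp11* in 3 of 6. The ratio of the Mmp sum to the Timp sum was 0.473, 0.589 and 0.572 in scr and 0.642, 0.592 and 0.596 in sh4 plates. All sh4 ratios were above all scr ratios, with 0.589 and 0.592 as the nearest values. Among single genes tested, 13.6% had every sh4 plate above every scr plate. *Mmp3* made up most of the Mmp sum, from 56.3% in scr plate 1, where the ratio was lowest, to 65.1% in sh4 plate 3. *Timp2* made up 76.5% to 81.9% of the Timp sum, and neither of these genes was called.

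Tumors and cells differed in which members were abundant. Ranks within each table were used because RPKM and FPKM came from separate normalizations, so these are not tests. The ranked sets also differ, with 13487 genes named by symbol from messenger RNA in tumors and 21106 Ensembl genes from total RNA in cells. *Timp2* lay above 96.1% of tested genes in tumors and 96.5% in cells, and *Mmp3* above 96.0% and 91.9%. By contrast, *Mmp2* lay above 93.1% in tumors and 12.8% in cells, *Mmp13* above 94.1% and 20.9%, *Mmp10* above 86.7% and 31.9%, and *Mmp11* above 73.2% and 18.5%. The tumors hold fibroblast and endothelial markers that the plates nearly lack, and the part of those cells in the tumor levels was not tested.

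Other genes of the pathway were read from 4 lists. In the tumors 0 genes of any list were called, against 0.0% of all genes. Of 17 further Mmp and Timp genes, 11 passed the filter, 8 with a positive and 3 with a negative difference. The macrophage elastase gene *Mmp12* was the highest of them, at 14.7, 7.77 and 12.9 RPKM in scr and 23.3, 13.5 and 10.7 RPKM in sh4 tumors (log2 difference 0.38, SE 0.34). Of 16 genes that activate, inhibit, anchor or clear the proteases or their activators, 14 were tested. Differences were positive in 3 and negative in 11, with a median of -0.19, against -0.04 over all genes. *Plaur*, the receptor of urokinase, was at 20.1, 33.4 and 26.2 RPKM in scr and at 19.0, 15.5 and 21.2 RPKM in sh4 tumors, with overlap (log2 difference -0.49, SE 0.23, limma unadjusted p = 0.0649, adjusted p = 0.995). The list of 14 ADAM and ADAMTS genes, relatives of the Mmp family, had 6 positive and 8 negative differences.

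Among 11 genes of AP-1, ETS and RUNX factors, which bind Mmp promoters, 8 had negative differences in the tumors and 2 were under an unadjusted limma p of 0.05, both lower in sh4, against 2.02% of all genes in that direction. In the same 2 genes every sh4 tumor was below every scr tumor, as in 4.98% of all genes tested. *Junb* was at 50.1, 45.3 and 54.2 RPKM in scr and at 29.8, 23.8 and 40.7 RPKM in sh4 tumors (log2 difference -0.69, SE 0.22, limma unadjusted p = 0.0139, adjusted p = 0.995). *Fosl1* was at 3.35, 6.50 and 4.12 RPKM in scr and at 3.03, 2.25 and 2.93 RPKM in sh4 tumors (log2 difference -0.63, SE 0.27, limma unadjusted p = 0.0499, adjusted p = 0.995). The unadjusted limma p of *Fosl1* was 0.0946 under quantile normalization and 0.0575 with the experiment as a block. Neither gene passed the adjusted threshold.

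In the cells, 3 genes of these lists were called, 2 lower and 1 higher in sh4. Among the 10 tested genes that activate, inhibit, anchor or clear the proteases or their activators, 1 fell, against 0.758% of all genes called lower. *Serpine2*, protease nexin 1, an inhibitor of plasminogen activators and thrombin, went from 4.46, 4.83 and 4.89 FPKM to 2.82, 2.73 and 2.67 FPKM (log2 difference -0.69, SE 0.06, limma adjusted p = 0.0145). The groups were well apart. *Plau*, the urokinase gene and the most abundant of the list with *Bsg*, was at 105 to 124 FPKM in scr and 102 to 112 FPKM in sh4 (limma adjusted p = 0.426).

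*Reck*, a membrane-anchored inhibitor of Mmp enzymes, was at 1.94, 1.91 and 1.89 FPKM in scr and at 1.25, 1.48 and 1.28 FPKM in sh4 plates, and missed the threshold (log2 difference -0.40, SE 0.07, limma adjusted p = 0.0673), though not under quantile normalization (0.0477) or median-ratio scaling (0.0471). *Lrp1*, a receptor that clears proteases and their inhibitors, was at 6.65, 3.88 and 3.68 FPKM and at 2.84, 2.75 and 3.20 FPKM, with scr plate 1 far above the rest (log2 difference -0.57, SE 0.21, limma adjusted p = 0.22). Of 8 tested ADAM and ADAMTS genes, the aggrecanase gene *Adamts4* was called. It went from 6.67, 7.79 and 7.16 FPKM in scr to 4.33, 4.39 and 4.08 FPKM in sh4 plates (log2 difference -0.69, SE 0.07, limma adjusted p = 0.0218), while *Adamts1* was higher in sh4 without passing (log2 difference 0.49, SE 0.11, limma adjusted p = 0.0984, and 0.0494 under median-ratio scaling). Of 7 tested further Mmp and Timp genes 0 were called, and *Mmp28* (epilysin) had the smallest p, at 4.54, 4.75 and 4.83 FPKM in scr and 3.31, 3.77 and 3.83 FPKM in sh4 (log2 difference -0.33, SE 0.07, limma adjusted p = 0.0828, and 0.0480 under quantile normalization).

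Of the 11 AP-1, ETS and RUNX factor genes, 6 had a positive and 5 a negative difference in the cells. Without overlap, sh4 was above in 3 (13.6% of all genes tested) and below in 3 (13.8%). By limma 1 gene was called higher, against 0.521% of all genes, and 0 lower, against 0.758%. *Jun*, which codes for an AP-1 subunit, went from 7.49, 8.70 and 9.05 FPKM in scr to 12.5, 12.8 and 13.1 FPKM in sh4 plates (log2 difference 0.58, SE 0.08, limma adjusted p = 0.0362). *Fosl1*, a partner of Jun, was at 9.64, 9.18 and 10.0 FPKM and at 12.2, 12.0 and 12.6 FPKM (log2 difference 0.33, SE 0.05, limma adjusted p = 0.0501), and *Etv4*, an ETS factor, at 15.5, 17.2 and 18.1 FPKM and at 23.2, 22.0 and 22.1 FPKM (log2 difference 0.40, SE 0.07, limma adjusted p = 0.0549). Both missed the threshold, and both passed it at a mean of at least 1 FPKM, under quantile normalization and under median-ratio scaling (limma adjusted p from 0.0101 to 0.0493). *Fosl2* went the other way, at 4.67, 4.85 and 4.58 FPKM in scr and at 3.55, 2.97 and 3.84 FPKM in sh4 plates. Its log2 difference was -0.40 (SE 0.09, limma adjusted p = 0.0974). In the tumors *Jun* and *Fosl1* had negative differences (-0.51 and -0.63, neither called), and the difference between tumors and cells was not tested.

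Each of the 3 calls kept its direction in 14 of 14 alternative settings, but each stayed called in 1 of 6 fits that left out a plate, the one without scr plate 1. Of the 8 other settings, *Serpine2* and *Adamts4* stayed called in 7 and *Jun* in 6, *Jun* being lost without a filter on low values (limma adjusted p = 0.0628). Over all alternatives the limma adjusted p ran from 0.00396 to 0.214 for *Serpine2*, 0.00554 to 0.214 for *Adamts4* and 0.00905 to 0.235 for *Jun*.

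**Figure D5:**
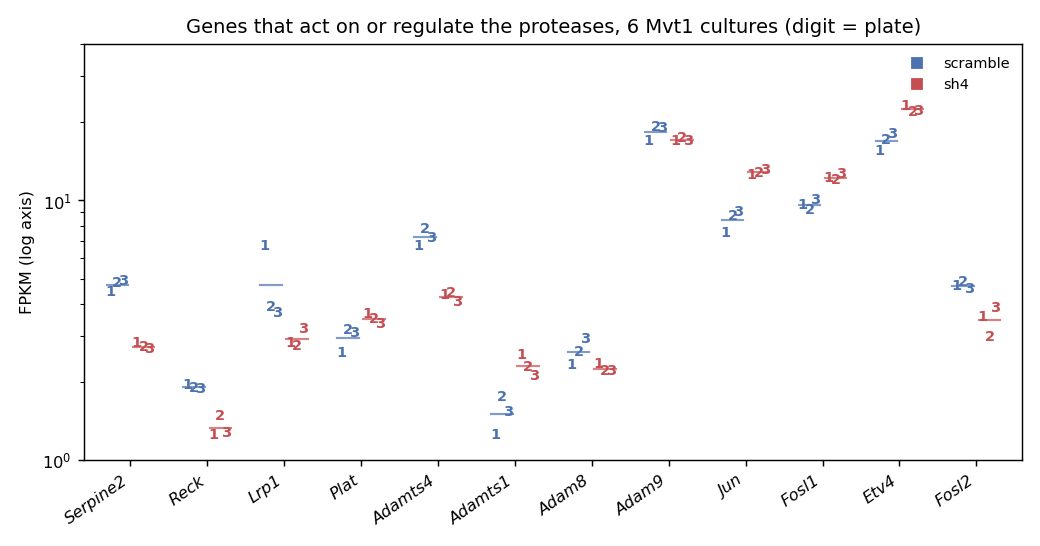
Level in FPKM (log axis) of the 4 genes with the smallest limma p in each of 3 pathway lists, in 6 Mvt1 cultures. Each digit is 1 plate, blue for scramble and red for sh4, and the bars are group means (n = 3). *Serpine2* and *Adamts4* fell and *Jun* rose at an adjusted p under 0.05 (0.0145, 0.0218 and 0.0362), and the other 9 genes did not pass.

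The genes most like a member in pattern were found for the member with the smallest limma p in each table. Likeness was the root mean square difference of log2(value + 0.5), centred on each gene's mean over 6 libraries. This scale shrinks the spread of low genes such as *Mmp9* and *Mmp10*, so their matches need not hold without the pseudocount. For *Mmp9* in the tumors the nearest of 10723 genes were *Nfatc4* (0.0668), *Ltbp2* (0.0826), *Zfp488* (0.120), *Ctsf* (0.120) and *Ephb6* (0.127). *Mmp9* ran from 0.219 to 1.36 RPKM over the 6 tumors, and *Nfatc4* from 1.01 to 3.25 RPKM. For *Mmp10* in the cells the nearest of 13704 genes were *mt-Ty* (0.0363) and *mt-Tc* (0.0404), which are mitochondrial transfer RNA genes, followed by ENSMUSG00000065899 (0.0470), *mt-Ta* (0.0472) and ENSMUSG00000099517 (0.0484). *mt-Ty* was at 186, 220 and 254 FPKM in scr and at 248.5, 292 and 265 FPKM in sh4 plates, where *Mmp10* ran from 0.550 to 1.09 FPKM over the 6 plates.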

How the data were processed

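Comparisons were made between 3 scr and 3 sh4 libraries within each table. The authors deposited RPKM for the tumors (Trimmomatic, Tophat to mm9 with Ensembl v70 transcripts, Partek Genomics Suite) and FPKM for the cells, by Ensembl gene or assembled locus. For the cells the methods name Tophat with GENCODE M15 and DESeq2, and the submitters' processing notes add, with no role, TopHat2 2.1.0 and STAR 2.7. The read counter, strand setting and read numbers are not given in the sources used here, and the spread between libraries is the measure of precision. Exome samples of metastases were not used. The 239874 assembled loci were left out, and 32709 of 50667 Ensembl genes matched a symbol. Positions came from the mm9 annotation.

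After a filter (average of 0.1 or more over a table's 6 libraries), log2(value + 0.5) was fitted with limma 3.58.1 (R 4.3.3, variance trend, Benjamini-Hochberg) over all genes kept, a procedure tested on simulated data. Members and lists were chosen with earlier results of these data known. Named genes were all members, *Rnaseh2c* and, of each pathway list, those among the 4 with the smallest limma p and the 2 with the highest mean. Tumor numbers pair the groups by experiment. After removal of group means, same-numbered tumors correlated at 0.138, 0.330 and -0.117. Alternatives were other pseudocounts (0.1 and 1), filters, scalings, a block, no trend, a transcript length covariate in tumors and leaving out each library. All tests were 2-sided. 1 gene of the pathway lists is not reported here, and list counts leave it out.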

Additional observations from a re-analysis of the deposited data

How the results depend on the processing

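In the tumors 0 members and 0 genes were called by limma under every alternative, with 334 to 2036 genes at an unadjusted p under 0.05, and in the cells 0 members were called under every alternative. The 270 cell genes called became 77 without a filter, 408 at a mean of at least 1 FPKM, 1223 with quantile normalization, 1045 with median-ratio scaling and 171 without the trend. Median-ratio scaling also changed the split, from 110 higher and 160 lower to 552 and 493. Leaving out a plate gave 2 to 242 calls (242 without scr plate 1, 7 without scr 2, 2 without scr 3, 15 without sh4 plate 1, 18 without sh4 2 and 15 without sh4 3).

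With the plate number as a replicate block the cell calls were 0, with 2813 genes at an unadjusted p under 0.05. Plates share only a number, since same-numbered plates correlated at -0.0607, -0.0755 and -0.0730 and 0 of 6 correlated best with their own number. The experiment block changed no tumor call.

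The sign of the tumor difference in *Mmp3* turned to 0.0383 under quantile normalization and 0.0409 under median-ratio scaling, and that of *Mmp2* in cells to 0.0279 under quantile normalization. Leaving out 1 library turned the sign of *Mmp2* (-0.17 to 0.85), *Mmp3* (-0.25 to 0.32), *Mmp10* (-0.55 to 0.64) and *Mmp13* (-1.11 to 1.33) in tumors and of *Mmp2* in cells (-0.0544 to 0.0339). The cause was not tested. With 3 libraries a group, the tumor intervals allow changes of *Mmp13* from 0.213-fold to 6.75-fold, and of *Timp2* from 0.703-fold to 1.11-fold.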
